A study of Oncorhynchus mykiss with 27 samples.

Results

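The transcripts of cathepsins L and S were followed in rainbow trout testis explants through 3 clones of a nylon cDNA array, *ctl1* (clone tcac0003.a.02, cathepsin L), *ctss* (clone tcav0002.d.23, cathepsin S precursor) and *ctssb1* (clone tcay0013.c.03, cathepsin S). They were chosen by name and are 3 of the 102 clones that the study's File S1 pairs with genes, out of 9024 clones on the arrays. File S1 lists clones that the authors had selected as responsive to Fsh on these same arrays, so a rise of these clones with Fsh is partly fixed by how the list was made.

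Cathepsins L and S are cysteine proteases of the papain family. They are made as inactive precursors, and the propeptide is cut off in acidic compartments such as the lysosome, where both enzymes degrade proteins. In mammals, cathepsin L is a secretory product of Sertoli cells, the somatic cells that nurse the germ cells, and is also released by many cells as a proenzyme. In mammals too, cathepsin S is best known from antigen-presenting cells, where it trims the invariant chain of MHC class II, and unlike most lysosomal cathepsins it stays active at neutral pH. Fish genomes carry several copies of both genes, and a cDNA spot cannot tell close copies apart where their sequences are nearly identical.

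Explants from a pool of immature testes were kept on membrane inserts for 96 h with Fsh at 500 ng/mL and trilostane at 10 µg/mL together (Fsh+Tri), with Fsh alone (Fsh), with trilostane alone (Tri), or with no added substance (Ctrl). Fsh is the pituitary hormone that drives early spermatogenesis, and trilostane inhibits 3 beta-hydroxysteroid dehydrogenase, without which Δ4 steroids such as androgens are not made. Each treatment has 6 arrays and tissue at day 0 (T0, 0 h of culture) has 3. The 6 cultures of a treatment are wells filled from the same mixed explants, so p-values measure the spread between wells and not between fish, and whole explants leave a change in the share of a cell type and a change in transcript per cell indistinguishable.

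The values are the authors' log2 values, in which the brightness of each spot was divided by a measure of the cDNA spotted and all arrays were quantile normalized, and a difference of 1 is a doubling. The labels give a maturity stage per array, although the study's methods describe both stages in each well. Stage I-II is given for 2 of 6 Fsh+Tri, 3 of 6 Fsh, 4 of 6 Tri, 6 of 6 Ctrl and 1 of 3 T0 arrays. The other arrays are given as stage III, so Ctrl and T0 also differ in labelled stage. Principal components were taken over the cultured arrays, from the tested clones with a value on every one of these. On the first component Ctrl replicate 4 stood apart (score -31.7, the other 23 cultured arrays between -10.4 and 10.4). It held the lowest Ctrl value of all 3 cathepsin clones, and the cathepsin calls that changed without it are given beside each result. The shares of all clones called changed without it too and are not all given. In Fsh+Tri against Fsh, for example, 0.658% in place of 0.46% of clones were then called lower. The files of Fsh replicate 3, Tri replicates 1 and 3, Ctrl replicate 3 and T0 replicate 1 come from a newer version of the image software than the other 22. Each log2 value was tested with limma across 4565 clones, and an adjusted p is the Benjamini-Hochberg value over all of them.

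*ctl1* was higher in every cultured group than at day 0, higher in Fsh than in Ctrl by 2.25-fold, and lower in Fsh+Tri than in Fsh, at 0.549 times the level. *ctss* and *ctssb1* were higher in Fsh than in Ctrl by 1.53-fold and 1.70-fold, with adjusted p-values just under the threshold. Averaged over both labelled stages, their level in Fsh+Tri lay close to that in Fsh. Trilostane alone gave no call for any of the 3 clones.

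The lowest, median and highest normalized log2 values of *ctl1* were 10.55, 10.76 and 11.17 in Fsh+Tri, 11.49, 11.63 and 11.91 in Fsh, 9.72, 10.35 and 10.58 in Tri, and 9.75, 10.60 and 10.86 in Ctrl. The 3 T0 arrays had 7.41, 8.03 and 8.08. All 6 Fsh arrays lay above every array of the other groups, and all T0 arrays lay below every cultured array, while Tri and Ctrl covered much the same range.

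**Figure D1:**
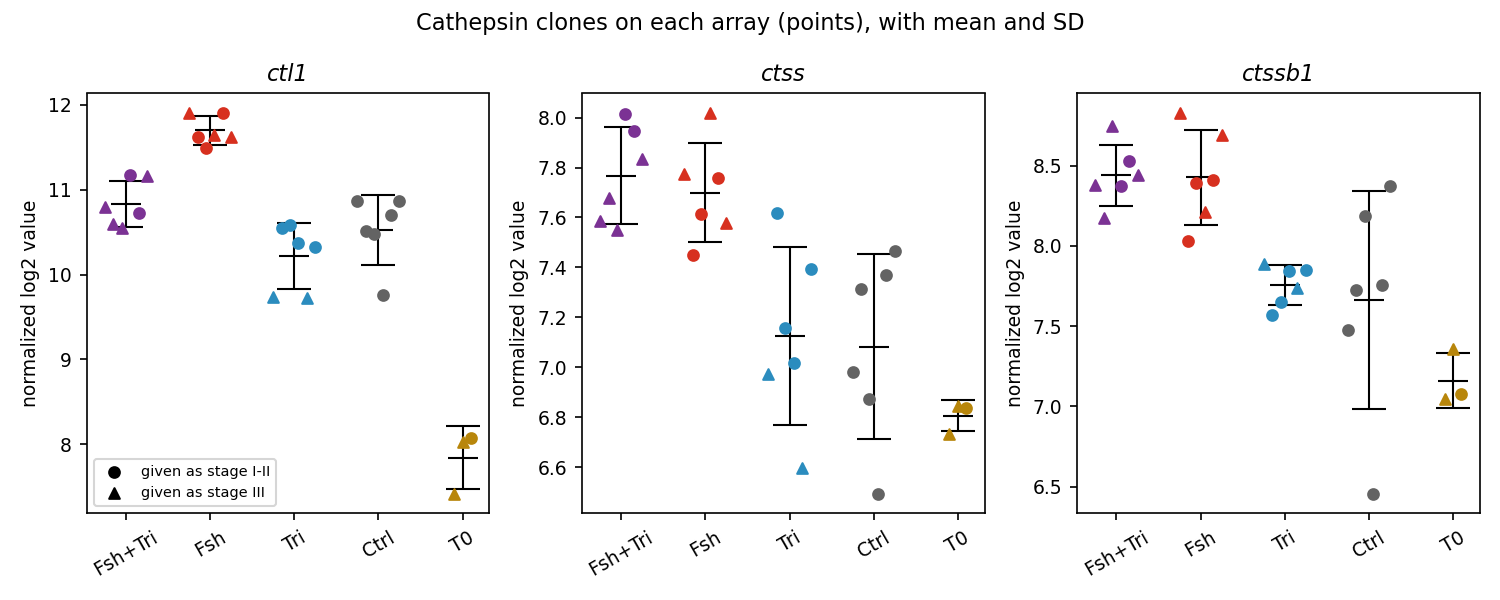
Normalized log2 value of *ctl1*, *ctss* and *ctssb1* (vertical axes, each panel with its own scale) on every array, by group. Points are arrays, circles given as stage I-II and triangles as stage III, and bars are the mean and SD. The Fsh arrays of *ctl1* sit between 11.49 and 11.91, above those of every other group, whereas for *ctss* and *ctssb1* the Fsh+Tri and Fsh arrays share a range.

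The same order held for the uncorrected brightness of the spot. The mean spot intensity of *ctl1* was 1710 ± 492 in Fsh+Tri, 2671 ± 1009 in Fsh, 1192 ± 505 in Tri, 1272 ± 430 in Ctrl (SD, n = 6 each) and 271 ± 161 at T0 (SD, n = 3). These intensities are not scaled between arrays, and the median over all spots of a cultured array lay between 52 and 113.

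For *ctss*, the lowest, median and highest normalized log2 values were 7.55, 7.76 and 8.01 in Fsh+Tri, 7.45, 7.69 and 8.02 in Fsh, 6.60, 7.09 and 7.62 in Tri, and 6.49, 7.15 and 7.47 in Ctrl. The T0 arrays had 6.74, 6.84 and 6.85. Of the 6 Fsh arrays 5 lay above every Ctrl array, and the remaining one fell just short of the highest Ctrl array. The T0 arrays lay above Ctrl replicate 4 and below the other 5 Ctrl arrays.

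For *ctssb1*, the corresponding values were 8.17, 8.41 and 8.75 in Fsh+Tri, 8.03, 8.40 and 8.83 in Fsh, 7.57, 7.79 and 7.88 in Tri, and 6.45, 7.74 and 8.38 in Ctrl. The T0 arrays had 7.05, 7.08 and 7.35. Ctrl was the most scattered group of the clone (SD 0.68), with 2 arrays that reached the range of the Fsh arrays and replicate 4 below the T0 arrays, whereas the SD in Tri was 0.13. The mean spot intensity was 356 ± 50.7 in Fsh+Tri, 298 ± 107 in Fsh, 212 ± 54.9 in Tri and 193 ± 63.8 in Ctrl for *ctssb1*, and 212 ± 63.7, 186 ± 77.3, 130 ± 41.6 and 125 ± 35.0 in the same 4 groups for *ctss* (SD, n = 6 each).

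Whether Fsh changed the cathepsin transcripts when steroid synthesis was left intact is answered by Fsh against Ctrl. *ctl1* averaged 11.70 ± 0.17 in Fsh and 10.53 ± 0.41 in Ctrl (SD, n = 6 each), a 2.25-fold difference (95% confidence interval 1.75 to 2.90, limma, adjusted p = 0.000175). This was the 11th largest rise among the 4565 clones tested, and the groups did not overlap. *ctssb1* averaged 8.43 ± 0.29 in Fsh and 7.66 ± 0.68 in Ctrl, a 1.70-fold difference (1.27 to 2.27, limma, adjusted p = 0.0420). *ctss* averaged 7.70 ± 0.20 in Fsh and 7.08 ± 0.37 in Ctrl, a 1.53-fold difference (1.21 to 1.94, limma, adjusted p = 0.0437). All 3 clones thus rose, against 1.8% of all clones tested that were called higher. The share of clones with every Fsh array above every Ctrl array was 1.05%, and *ctl1* was one of them. As the clones were drawn from a list made on this comparison, nothing is read from these shares.

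The rise of *ctl1* with Fsh held under all 38 alternatives, with an adjusted p of at most 0.0126. It was 1.02 on the log2 scale without Ctrl replicate 4 (adjusted p = 0.000226), 1.14 on stage I-II arrays alone (adjusted p = 0.0126) and 1.20 on the arrays read with the older software (adjusted p = 0.000863, all limma). The calls of the cathepsin S clones were less secure. That of *ctss* was lost when any one of 14 of the 24 arrays was left out, and that of *ctssb1* for 12 of them. Without Ctrl replicate 4 the rises were 0.50 for *ctss* (adjusted p = 0.0843) and 0.52 for *ctssb1* (adjusted p = 0.0681, limma), and on stage I-II arrays they were 0.52 and 0.62 (adjusted p = 0.293 and 0.368). The other arrays whose removal ended the call of *ctss* were Ctrl 1 and 3, Fsh 1, 3, 4, 5 and 6, Tri 3 and 4, and Fsh+Tri 1, 2, 5 and 6. Those for *ctssb1* were Ctrl 1, 2 and 5, Fsh 1, 3, 5 and 6, Tri 5, and Fsh+Tri 1, 5 and 6. In each of these the direction was kept.

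**Figure D2:**
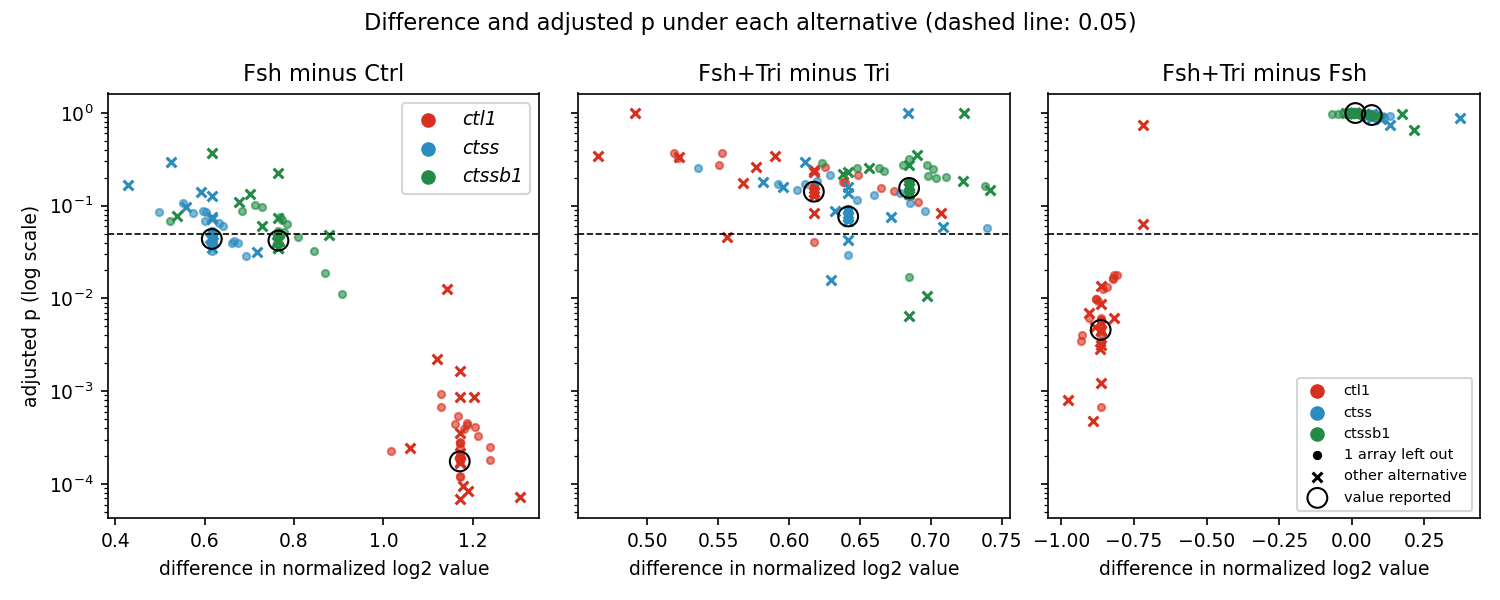
Difference in normalized log2 value (horizontal axes) and adjusted p (vertical axis, log scale) of the 3 clones under every alternative for 3 comparisons, with circles for 1 array left out, crosses for other alternatives and rings for the values reported. In Fsh minus Ctrl all points of *ctl1* lie below the dashed line at 0.05, while those of *ctss* and *ctssb1* lie on both sides of it.

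The response to Fsh with the synthesis of Δ4 steroids inhibited is given by Fsh+Tri against Tri. In the study, trilostane strongly lowered the androgen released into the medium by Fsh-treated explants but did not remove it wholly. Between Fsh+Tri and Tri the 3 clones differed by similar amounts and none passed the threshold. *ctssb1* averaged 8.44 ± 0.19 in Fsh+Tri and 7.75 ± 0.13 in Tri (SD, n = 6 each), a 1.61-fold difference (1.20 to 2.15, limma, adjusted p = 0.155). *ctss* averaged 7.77 ± 0.19 in Fsh+Tri and 7.13 ± 0.36 in Tri, a 1.56-fold difference (1.23 to 1.97, limma, adjusted p = 0.0763). *ctl1* averaged 10.83 ± 0.27 in Fsh+Tri and 10.22 ± 0.39 in Tri, a 1.53-fold difference (1.19 to 1.98, limma, adjusted p = 0.141). Of all clones tested 0.329% were called higher in this comparison.

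By their sizes these differences stood 24th (*ctssb1*), 32nd (*ctss*) and 39th (*ctl1*) among the 4565 clones. All 6 Fsh+Tri arrays of *ctssb1* lay above all Tri arrays, as they did for 1.29% of clones, and 4 of 6 for *ctss* and 5 of 6 for *ctl1*. Without Ctrl replicate 4, which is in neither group but enters the shared estimate of the spread, all 3 clones passed (limma, adjusted p = 0.0171 for *ctssb1*, 0.0293 for *ctss* and 0.0407 for *ctl1*), and in that fit 0.966% of clones were called higher. They also passed with array weights, a fit with 84 calls over all clones in place of 16. The study chose the clones of File S1 on this comparison as well as on Fsh against Ctrl. Nothing is therefore read from these ranks, shares and calls.

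When the cultured groups were set against each other across the trilostane and Fsh treatments, *ctss* and *ctssb1* differed in Fsh+Tri from Ctrl by 1.61-fold (limma, adjusted p = 0.0212) and 1.71-fold (limma, adjusted p = 0.0383), where 1.62% of clones were called higher. With single arrays left out, the call of *ctss* was lost without Ctrl replicate 4 (0.57, adjusted p = 0.0551) or Fsh+Tri replicate 4, 5 or 6, and that of *ctssb1* without Ctrl replicate 1, 2, 4 or 5 or any Fsh+Tri replicate but the second. All 6 Fsh+Tri arrays of *ctss* lay above all Ctrl arrays, a pattern seen in 1.64% of clones. *ctl1* in Fsh+Tri was 1.24-fold its Ctrl level (0.958 to 1.59, limma, adjusted p = 0.489), with the 2 groups overlapping.

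In Fsh against Tri, *ctl1* differed by 2.79-fold (limma, adjusted p = 1.44e-06), the 5th largest rise of all clones. *ctss* was 1.49-fold higher (limma, adjusted p = 0.0458), a call that was lost with 15 of the 24 arrays left out singly and kept only without Ctrl replicates 2 to 6, Fsh replicate 2, Tri replicates 2 and 6 or Fsh+Tri replicate 4. *ctssb1* was at 1.59-fold (limma, adjusted p = 0.0627) and passed without Ctrl replicate 4 (0.67, adjusted p = 0.00495) or 6 or Fsh replicate 2. In this comparison 1.99% of clones were called higher, and 1.77% had all Fsh arrays above all Tri arrays, *ctl1* and *ctssb1* among them.

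**Figure D3:**
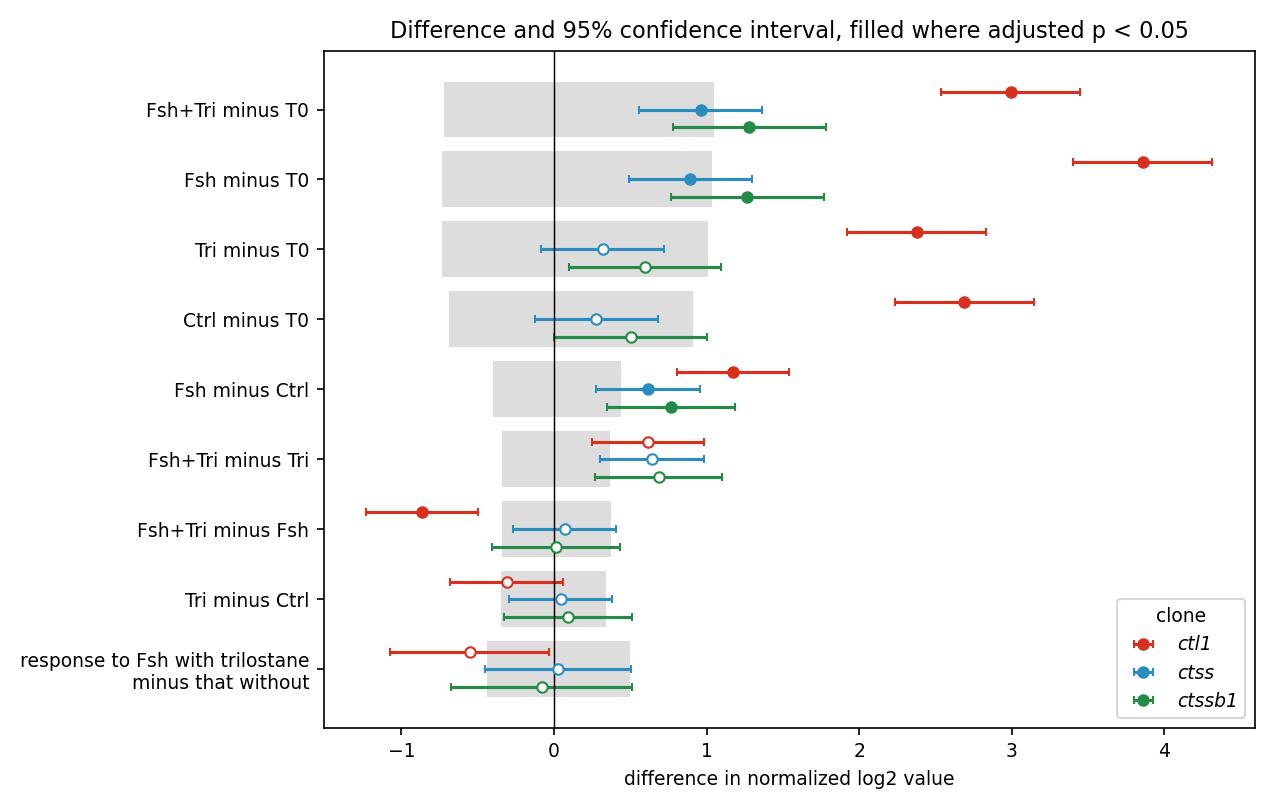
Difference in normalized log2 value (horizontal axis) of *ctl1*, *ctss* and *ctssb1* in 9 comparisons, with 95% confidence intervals, filled where the adjusted p was under 0.05. Grey bars span the 5th to the 95th percentile of all clones. *ctl1* lies above the bar in each comparison with T0, in Fsh minus Ctrl (1.17) and in Fsh+Tri minus Tri (0.62). It lies below the bar in Fsh+Tri minus Fsh (-0.86) and in the difference of the responses (-0.55). *ctss* and *ctssb1* also lie above the bar in Fsh minus Ctrl and in Fsh+Tri minus Tri, and *ctssb1* in Fsh+Tri minus T0 and Fsh minus T0.

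In Tri against Ctrl, *ctl1* was at 0.806 times its Ctrl level (0.625 to 1.04, limma, adjusted p = 0.615), *ctss* at 1.03 times (0.814 to 1.30, adjusted p = 0.960) and *ctssb1* at 1.07 times (0.798 to 1.43, adjusted p = 0.930). Only 0.0657% of clones were called lower with trilostane alone. The Tri values of *ctl1* and *ctss* parted by the stage of the labels, and those of *ctssb1* did not. Those of *ctl1* averaged 10.46 ± 0.13 on the 4 arrays labelled stage I-II and 9.73 ± 0.01 on the 2 given as stage III (SD). On the same arrays *ctss* averaged 7.30 ± 0.27 and 6.78 ± 0.27, and *ctssb1* 7.73 ± 0.14 and 7.81 ± 0.11 (SD). In Fsh the 2 stages of *ctl1* averaged 11.67 ± 0.21 and 11.73 ± 0.16 (SD, n = 3 each). The difference between stages was not tested.

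Trilostane added to Fsh separated the clones. *ctl1* fell to 10.83 ± 0.27 in Fsh+Tri, against 11.70 ± 0.17 in Fsh (SD, n = 6 each), which is 0.549 times the level in Fsh (0.426 to 0.708, limma, adjusted p = 0.00458). All 6 Fsh+Tri arrays lay below all 6 Fsh arrays, as in 0.723% of clones, and 0.46% of clones were called lower. It was the 23rd largest fall of 4565. *ctss* was at 1.05 times the level in Fsh (0.829 to 1.33, limma, adjusted p = 0.946) and *ctssb1* at 1.01 times (0.755 to 1.35, limma, adjusted p = 0.994). These intervals leave room for moderate changes in either direction. The labelled stages went opposite ways for both clones. On stage I-II arrays (2 Fsh+Tri, 3 Fsh) *ctss* averaged 7.98 in Fsh+Tri and 7.61 in Fsh, and *ctssb1* 8.45 and 8.28. On stage III arrays (4 Fsh+Tri, 3 Fsh) *ctss* averaged 7.66 and 7.79, and *ctssb1* 8.43 and 8.58. Whether the effect of trilostane differed between stages was not tested.

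The fall of *ctl1* between Fsh and Fsh+Tri was called with any single array left out (limma, adjusted p at most 0.0177). It was 0.91 on the log2 scale on arrays of the older software (adjusted p = 0.00702) and had the same direction but no call on stage I-II arrays, where 2 Fsh+Tri arrays met 3 Fsh arrays (-0.72, adjusted p = 0.747). With the spot intensities centred on each array's median in place of the normalized values it was -0.72 too (adjusted p = 0.0641), on a scale on which the median of all clones stood at 0.10 in this comparison.

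The response of *ctl1* to Fsh was 1.17 without trilostane and 0.62 with it. The difference of the 2 responses was -0.55 (95% confidence interval -1.07 to -0.03), with an unadjusted p of 0.0376 that did not hold over all clones (limma, adjusted p = 0.603). Only 0.0657% of clones, 3 of 4565, were called lower by this test. For *ctss* the difference of the responses was 0.03 (-0.45 to 0.51, limma, adjusted p = 0.984) and for *ctssb1* it was -0.08 (-0.67 to 0.51, limma, adjusted p = 0.964), and the sign of both depended on the setting.

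To compare the clones directly, the log2 value of one was subtracted from that of another on the same array, which removes what the clones of an array share. These differences are not ratios of transcript amounts, as spots of different cDNA differ in brightness for the same amount of transcript. They are read only between treatments. The cathepsin S spots were dim, with Ctrl intensities of 77 to 166 for *ctss* and 83 to 263 for *ctssb1*. The medians over all spots of the Ctrl arrays were 61 to 88. Whether low brightness reduced the log2 changes of these 2 clones was not tested. Of 15 comparisons over the 3 pairs of clones, 4 passed after adjustment, and all 4 involved *ctl1*.

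The value of *ctl1* minus that of *ctss* was 3.07 ± 0.20 in Fsh+Tri and 4.00 ± 0.21 in Fsh (SD, n = 6 each), a difference of -0.93 (2-sided exact permutation test, p = 0.00216, the smallest that 6 against 6 arrays allow, adjusted p = 0.0162). For *ctl1* minus *ctssb1* it was 2.39 ± 0.36 in Fsh+Tri and 3.27 ± 0.27 in Fsh, a difference of -0.88 (exact permutation test, p = 0.00216, adjusted p = 0.0162). The arrays of Fsh+Tri lay wholly below those of Fsh for both pairs. On the log2 scale, the effect of trilostane on Fsh-treated explants therefore differed between *ctl1* and either cathepsin S clone by more than the spread between wells. From these same arrays the study had already classed the Fsh response of *ctl1* as reduced by trilostane. It classed those of *ctss* and *ctssb1* as insensitive. The direction of this difference was thus known beforehand, and the test is no independent evidence of it. On stage I-II arrays, where 2 arrays met 3, the differences were -1.09 and -0.89 (exact permutation tests, p = 0.1, the smallest these numbers allow).

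With Fsh alone, the log2 value of *ctl1* rose more than that of *ctss*, the dimmer spot. The value of *ctl1* minus *ctss* was 4.00 ± 0.21 in Fsh and 3.44 ± 0.25 in Ctrl, a difference of 0.55 (exact permutation test, p = 0.00649, adjusted p = 0.0244). On the arrays of the older software this was 0.61 (exact permutation test, adjusted p = 0.0595), and on those given as stage I-II 0.62 (exact permutation test, adjusted p = 0.179). For *ctl1* minus *ctssb1* the difference between Fsh and Ctrl was 0.41 (exact permutation test, p = 0.0931, adjusted p = 0.233).

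With trilostane present, the responses to Fsh could not be told apart between clones. *ctl1* minus *ctss* was 3.07 ± 0.20 in Fsh+Tri and 3.09 ± 0.26 in Tri, a difference of -0.02 (exact permutation test, p = 0.864), and *ctl1* minus *ctssb1* was 2.39 ± 0.36 in Fsh+Tri and 2.46 ± 0.47 in Tri, a difference of -0.07 (exact permutation test, p = 0.777). The change that trilostane made in the response to Fsh differed between *ctl1* and *ctss* by -0.58 (approximate permutation test that swapped trilostane labels at a fixed Fsh dose, p = 0.00643, adjusted p = 0.0244), and on stage I-II arrays by -0.81 (approximate permutation test, adjusted p = 0.107). Between *ctl1* and *ctssb1* it differed by -0.47 (approximate permutation test, p = 0.143, adjusted p = 0.280).

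*ctss* and *ctssb1* did not differ from each other in any of the 5 comparisons. The value of *ctss* minus *ctssb1* was -0.67 ± 0.29 in Fsh+Tri, -0.73 ± 0.34 in Fsh, -0.63 ± 0.42 in Tri and -0.58 ± 0.47 in Ctrl (SD, n = 6 each), and the 5 adjusted p were all 0.864 (permutation tests, approximate for the difference of responses). The SDs of 0.29 to 0.47 bound what these comparisons could show.

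**Figure D4:**
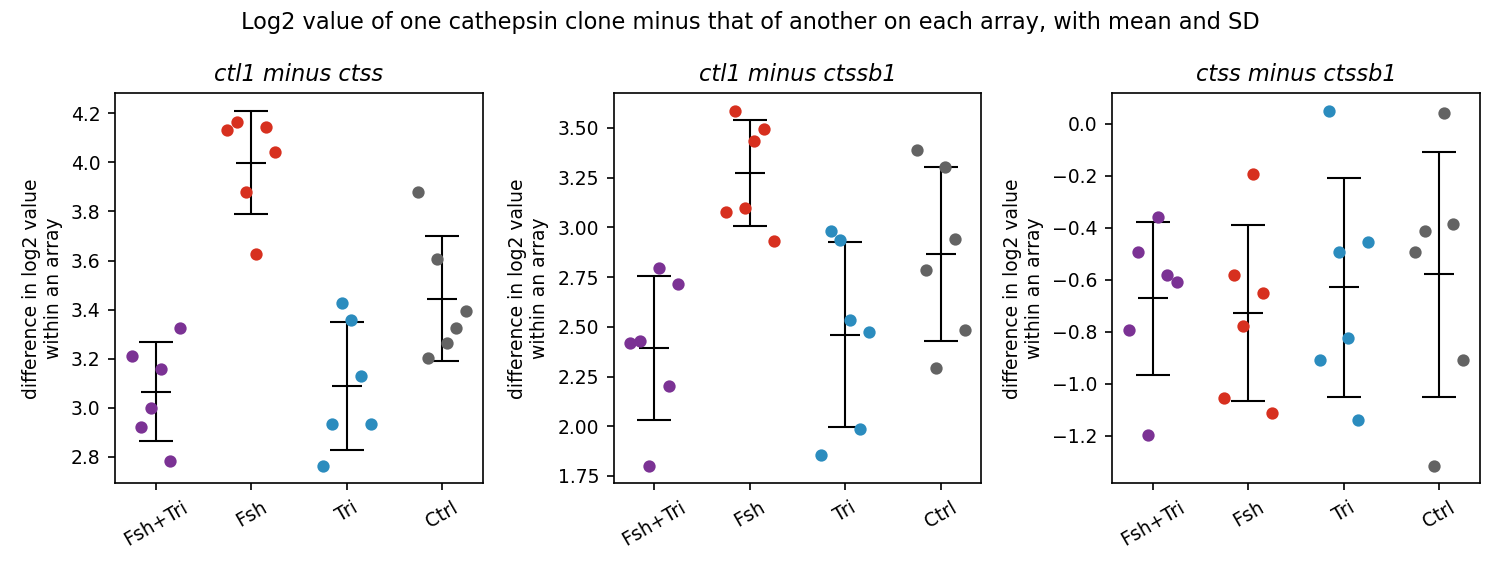
Normalized log2 value of one cathepsin clone minus that of another on the same array (vertical axes) in the 4 cultured groups, with the mean and SD over 6 arrays. The Fsh arrays of *ctl1* minus *ctss* average 4.00 and stand above those of Fsh+Tri, which average 3.07. The ranges of *ctss* minus *ctssb1* overlap in all groups and are wider in Tri and Ctrl.

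Against day 0, *ctl1* was higher in every cultured group. Compared with day 0, when it averaged 7.84 ± 0.37 (SD, n = 3), *ctl1* was 7.97-fold higher in Fsh+Tri (95% confidence interval 5.81 to 10.9, limma, adjusted p = 2.81e-12), 14.5-fold higher in Fsh (10.6 to 19.9, adjusted p = 8.99e-15), 5.19-fold higher in Tri (3.79 to 7.12, adjusted p = 8.14e-10) and 6.45-fold higher in Ctrl (4.70 to 8.84, adjusted p = 7.91e-11). Among 4563 clones with a value at day 0 these rises ranked 12th, 4th, 23rd and 10th. The 4 comparisons share the T0 arrays and are not independent of each other.

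Many clones changed in culture, and 14.9% were called higher in Fsh+Tri, 13.8% in Fsh, 13.6% in Tri and 12.6% in Ctrl than at T0. Clones with every cultured array above every T0 array made up 15.9% for Fsh+Tri, 13.8% for Fsh, 13.8% for Tri and 9.88% for Ctrl. *ctl1* belonged to all of these, and its calls against T0 held under all 41 alternatives in each comparison. On stage I-II arrays, of which only 1 was from T0, its difference between Ctrl and T0 was 2.45 (limma, adjusted p = 0.000116).

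The cathepsin S clones rose over T0 where Fsh had been added. *ctssb1* averaged 7.16 ± 0.17 at T0 (SD, n = 3) and was 2.43-fold higher in Fsh+Tri (1.72 to 3.43, limma, adjusted p = 0.000163) and 2.41-fold higher in Fsh (1.70 to 3.40, adjusted p = 0.000215). *ctss* averaged 6.81 ± 0.06 at T0 and was 1.95-fold higher in Fsh+Tri (1.47 to 2.58, limma, adjusted p = 0.000394) and 1.86-fold higher in Fsh (1.40 to 2.46, adjusted p = 0.00103). All 12 Fsh-treated arrays of both clones lay above all T0 arrays, and these 4 calls were lost in 1 alternative each, the stage I-II arrays with their single T0 array.

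Without Fsh neither was called against T0. *ctssb1* was at 1.51-fold in Tri (1.07 to 2.14, limma, adjusted p = 0.0812) and 1.42-fold in Ctrl (1.00 to 2.00, adjusted p = 0.161) of its T0 level, and *ctss* at 1.25-fold in Tri (0.943 to 1.65, adjusted p = 0.286) and 1.21-fold in Ctrl (0.915 to 1.60, adjusted p = 0.380). All 6 Tri arrays of *ctssb1* lay above the T0 arrays, and its difference between Tri and T0 passed under 4 alternatives that kept all arrays of both groups, from 0.60 to 0.71. Without Ctrl replicate 4, *ctssb1* passed in Tri (0.60, adjusted p = 0.0136) and in Ctrl (0.74, adjusted p = 0.00342), and *ctss* in Ctrl did not (0.39, adjusted p = 0.140, limma). The effect of Fsh alone was tested only in the comparison above in which Fsh and Ctrl arrays met directly. Whether it differs from the effect of culture was not tested.

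**Figure D5:**
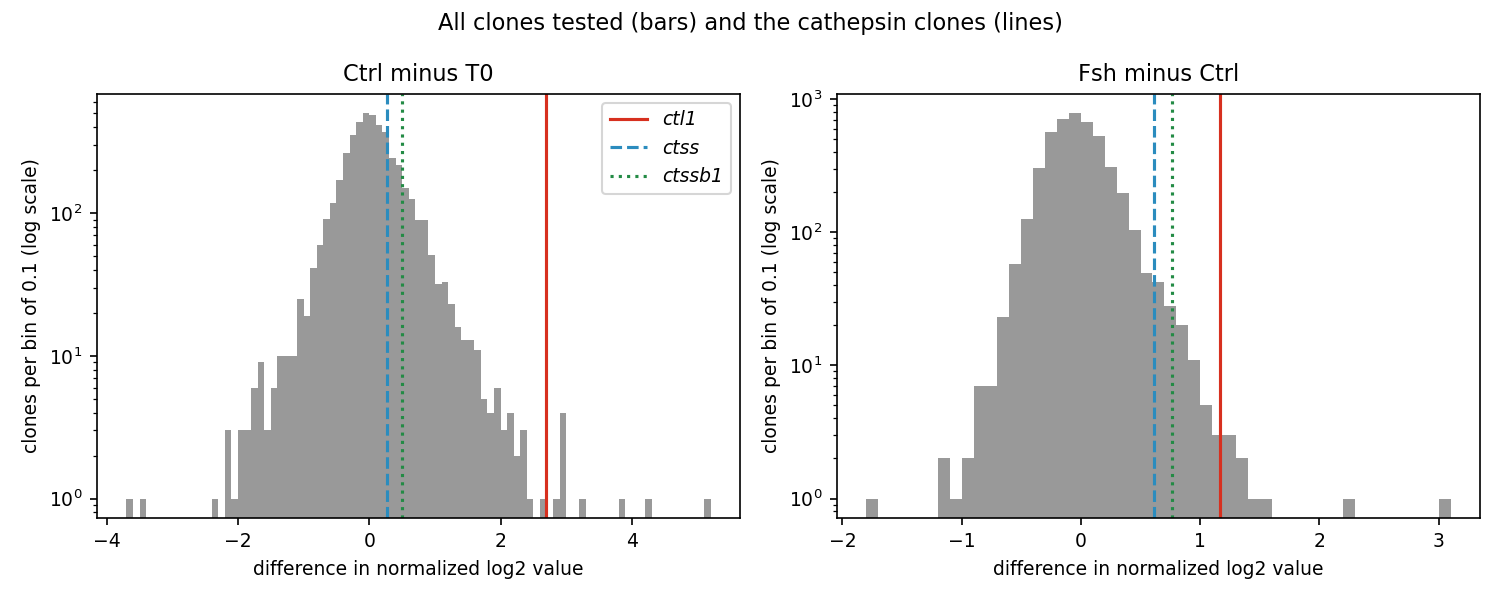
Number of clones tested (vertical axes, log scale) by their difference in normalized log2 value (horizontal axes) for Ctrl minus T0 and Fsh minus Ctrl, with vertical lines at the 3 cathepsin clones. *ctl1* lies in the upper tail of both, at 2.69 and 1.17, while *ctss* (0.28) and *ctssb1* (0.50) lie within the bulk of Ctrl minus T0.

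Among the named clones, 2 further lysosomal enzymes stood beside the cathepsins, *cpvl*, a serine carboxypeptidase, and *galns*, a sulfatase that acts on keratan and chondroitin sulfate. In Fsh against Ctrl all 5 lysosomal clones were called higher, beside 1.8% of all clones, with a median difference of 0.72 against -0.04 over all clones. Without Ctrl replicate 4, 3 of the 5 were called (*ctl1*, *cpvl* and *galns*), beside 1.49% of all clones. *cpvl* differed by 0.72 (limma, adjusted p = 0.0180) and *galns* by 0.71 (adjusted p = 0.0219). In Fsh+Tri against Tri 1 of 5 was called, *galns* with 0.79 (limma, adjusted p = 0.0296), beside 0.329% of all clones called higher, with a median of 0.64 against 0.02 over all clones, and without Ctrl replicate 4 it was 4 of 5, beside 0.966%. In Fsh+Tri against Fsh 1 of 5 was called lower, *ctl1* itself, beside 0.46% of all clones, with a median of -0.15 against 0.03. The list comes from File S1, so its counts with Fsh are no independent evidence of a direction.

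Between Ctrl and T0, a comparison that File S1 was not made on though it shares the Ctrl arrays, 3 of the 5 lysosomal clones were called higher and none lower, beside 12.6% of all clones called higher. These were 4 of 5 without Ctrl replicate 4, *ctssb1* added, beside 14% of all clones. *galns* was 7.52-fold higher in Ctrl than at T0 (limma, adjusted p = 1.17e-11), *ctl1* 6.45-fold and *cpvl* 1.98-fold (adjusted p = 0.000802). The median was 0.99, against 0.03 over all clones.

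The other clones of proteolysis in File S1 split. Of 5 clones of extracellular proteolysis, 4 were called higher with Fsh than in Ctrl, beside 1.8% of all clones. Among them were *mmp19*, a matrix metalloproteinase, with 1.54 (limma, adjusted p = 1.36e-06) and *plg*, plasminogen, with 0.82 (adjusted p = 0.00229). The other 2 were protease inhibitors, *tfpi2* with 0.92 (adjusted p = 0.000192) and *timp2* with 0.69 (adjusted p = 0.00997). In Fsh+Tri against Tri 3 of the 5 were called higher, beside 0.329% of all clones, the largest being *tfpi2* with 1.20 (limma, adjusted p = 1.06e-05). Without Ctrl replicate 4 it was 4 of 5, beside 0.966%. In Fsh+Tri against Fsh, 1 of them was called lower, *mmp19* with -1.27 (adjusted p = 1.83e-05), beside 0.46% of all clones, and without Ctrl replicate 4 *hgfa* was called higher too (0.64, adjusted p = 0.0202). Of the 2 proteasome subunits, *psma4* was called lower with Fsh than in Ctrl at -0.71 (limma, adjusted p = 0.0123) and *psmd1* stood at 0.56 (adjusted p = 0.0647), where 0.372% of all clones were called lower. Both lists come from File S1, so their counts with Fsh are likewise no independent evidence of a direction.

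The MHC clones, whose class II products meet cathepsin S in antigen-presenting cells, gave calls in the other direction. These clones too come from File S1, so their counts with Fsh are no independent evidence of a direction. Of the 4 clones 2 were called lower in Fsh than in Ctrl, beside 0.372% of all clones, the MHC class II alpha chain with -0.96 (limma, adjusted p = 0.0185) and 1 of the 2 clones of *onmy-uba*, a class I gene, with -0.78 (adjusted p = 0.00972). Both remaining clones stood at -0.63 (adjusted p = 0.0574 for *onmydab* and 0.103 for the other *onmy-uba* clone), and without Ctrl replicate 4 all 4 were called lower, beside 1.23% of all clones. In Fsh+Tri against Fsh the same 2 were called higher, with 0.87 (adjusted p = 0.0489) and 0.68 (adjusted p = 0.0357), beside 0.986% of all clones called higher. The 2 class II clones stood here for leukocytes. Their summed linear value ranged over 504 to 769 in Fsh+Tri, 332 to 487 in Fsh, 718 to 1065 in Tri and 381 to 1016 in Ctrl, or 600 to 1016 in Ctrl without replicate 4. At T0 it ranged over 763 to 1112.

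The summed linear value of 4 Sertoli cell markers (*amh*, *dmrt1*, *inha* and *cldn11*) ranged over 2388 to 3189 in Fsh+Tri, 3532 to 4616 in Fsh, 1484 to 2344 in Tri, 835 to 2696 in Ctrl and 6435 to 7153 at T0. The Ctrl range was 2283 to 2696 once replicate 4 was left out. The Fsh arrays lay above the other cultured arrays in this sum and the T0 arrays above all, but the 4 markers differed among themselves. *amh* was lower in Ctrl than at T0 by -3.47 (limma, adjusted p = 2.87e-12) and *cldn11* higher by 1.02 (adjusted p = 0.000381), and between Fsh and Ctrl *amh* stood at -0.26 (adjusted p = 0.570) while *inha* (1.41), *dmrt1* (0.80) and *cldn11* (0.65) were called higher, the last of them not without Ctrl replicate 4 (0.49, adjusted p = 0.0633). All cell type markers used here come from File S1, so their change with Fsh is partly fixed by how that list was made. Their sums are therefore no measure of the share of a cell type. The part of a shift between cell types in the cathepsin values was not tested. Of the other markers, *hsd3b1* of Leydig cells had a linear value of 155 to 219 in Fsh+Tri, 140 to 227 in Fsh, 109 to 167 in Tri, 90.1 to 145 in Ctrl (116 to 145 without replicate 4) and 378 to 608 at T0. The cell cycle clones *mcm7*, *ccne1* and *cenpa* were taken as markers of proliferating germ cells. The study gives *ccne1* a somatic and *cenpa* a meiotic or post-meiotic expression profile, so their sum is not specific to these cells. It was 1142 to 1392 in Fsh+Tri, 1027 to 1919 in Fsh, 1568 to 2148 in Tri, 1239 to 2718 in Ctrl (1912 to 2718 without replicate 4) and 1581 to 1689 at T0. With all arrays none of them was called lower in Fsh than in Ctrl. Without Ctrl replicate 4 *ccne1* alone was (-0.77, limma, adjusted p = 0.00376). For *rhag* of red blood cells the values were 122 to 236 in Fsh+Tri, 66.4 to 108 in Fsh, 91.4 to 113 in Tri, 70.9 to 92.4 in Ctrl (73.6 to 92.4 without replicate 4) and 51.9 to 65.6 at T0, with the T0 arrays below every cultured array. The reference transcript *rps15* had log2 values of 10.79 to 11.21 in Fsh+Tri, 10.78 to 11.32 in Fsh, 10.74 to 11.48 in Tri and 10.61 to 11.41 in Ctrl, and differed by 0.06 between Fsh and Ctrl (limma, adjusted p = 0.871).

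Over the 24 cultured arrays, the named clone whose values ran most like those of *ctl1* was *cth*, cystathionine gamma-lyase, which makes cysteine (Pearson r = 0.92), followed by an uncharacterized clone, LOC555552 (r = 0.90), and *cpvl* (r = 0.89). *cth* differed by 1.40 between Fsh and Ctrl (limma, adjusted p = 2.65e-06) and by -1.04 between Fsh+Tri and Fsh (adjusted p = 0.000144). For *ctss* they were a clone annotated as *dnajc11*, a mitochondrial J protein (r = 0.83), *cpvl* (r = 0.79) and *hgfa*, given as hepatocyte growth factor activator (r = 0.77). For *ctssb1* they were *cebpb*, a transcription factor (r = 0.84), *aplp1*, an amyloid-like protein (r = 0.81), and *inha*, the inhibin alpha subunit (r = 0.80). The cathepsin clones followed each other less closely, with r = 0.73 for *ctl1* and *ctss*, 0.63 for *ctl1* and *ctssb1* and 0.72 for *ctss* and *ctssb1*. These values describe clones of a list chosen for its response to Fsh, on arrays that share treatments, and carry no test. Without Ctrl replicate 4 the values of *ctssb1* with *cebpb*, *aplp1* and *inha* were 0.72, 0.69 and 0.64, none of them then among its 3 highest, and those among the cathepsins 0.68, 0.56 and 0.61 in the order above, while the 3 clones most like *ctl1* were the same. The values of *ctss* with *dnajc11*, *cpvl* and *hgfa* were then 0.78, 0.72 and 0.70, and *hgfa* was no longer among its 3 highest.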

How the data were processed

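Radiolabelled cDNA of cultured explants and of day 0 tissue was hybridized to 27 nylon membranes. The deposited intensity of each spot is its brightness. For the deposited log2 values, the input here, the authors corrected this intensity for the cDNA spotted with a second hybridization to the vector, rescaled it and quantile normalized the arrays. Columns not used numbered 0. Rows of water and a vector control (192) were left out. Of 9024 clones, 8244 were measured on 80% or more of the cultured arrays, and the 4565 of these with a mean at or above the experiment's median (6.42) in at least 1 treatment were tested. All 3 cathepsin clones met this in all 4 treatments. Arrays held 8184 to 8972 values, their medians were 6.40 to 6.41, and precision is limited by their number.

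A mean per treatment with a shared spread was fitted over the 24 cultured arrays, or over all 27 for contrasts with T0, with limma 3.58.1 in R 4.3.3 (lmFit, eBayes). P-values were adjusted by Benjamini-Hochberg over all clones, with a threshold of 0.05. Pairs of clones were set against each other with permutation tests (2-sided, 15 in all, adjusted together), exact where 2 treatments were compared. For the difference of responses, trilostane labels were permuted at a fixed Fsh dose, once the average trilostane effect had been subtracted. That effect was estimated from the same arrays, so the p-values of this test are approximate. The fit was tested on simulated data. Python 3.11.15, scipy 1.17.1 and matplotlib 3.10.9 were used.

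The cathepsin clones, the gene lists and the tests were chosen with earlier results of these data known. Named clones are the 3 cathepsins, 4 lists (lysosomal, extracellular proteolysis, proteasome, MHC), for each cathepsin the 3 clones of File S1 with the highest Pearson r, cell type markers and *rps15*. Clones were named through File S1, whose ID numbers match spot numbers of the intensity files (median r of log2 intensity with the log2 values 0.993 over 102 clones, at most 0.334 for the neighbouring spot). Alternatives covered normalization, spot intensity, filters, stage, software version, array weights, samples in the fit, a replicate block and leaving out each array. No sequence of the clones or genome position was used here.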

Additional observations from a re-analysis of the deposited data

Results flagged for a closer look

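The value of *ctl1* on Ctrl replicate 4 was 9.75 on the normalized log2 scale, and the nearest of the other 5 Ctrl arrays was at 10.48. This gap took 0.653 of the range of the group, above the critical value of 0.625 for 6 samples. It was the 1 value marked in 12 groups of 6 arrays (3 clones in 4 treatments), of which chance would mark about 1 in 20. The same array was the lowest of Ctrl for *ctss* (6.49) and *ctssb1* (6.45) and lay apart on the first principal component of the cultured arrays.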

How the results depend on the processing

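The rise of *ctl1* with Fsh and its rise over day 0 kept their call under every alternative run. Its fall in Fsh+Tri against Fsh lost the call on spot intensities centred on the median (-0.72) and on stage I-II arrays (-0.72). The call of Fsh minus Ctrl was lost for *ctss* and *ctssb1* with spot intensities centred on the median (0.56 and 0.68), with no filter on level (0.62 and 0.77), on stage I-II arrays (0.52 and 0.62), with array weights (0.43 and 0.54) and with only the groups of the contrast fitted (0.62 and 0.77). It was lost for *ctss* on arrays of the older software (0.59), and for *ctssb1* with spot intensities quantile normalized (0.73) and with stage as a covariate (0.70). With each array left out in turn it ranged from 0.50 to 0.69 for *ctss* and from 0.52 to 0.91 for *ctssb1*. Fsh+Tri minus Tri passed with array weights for *ctl1* (0.56), *ctss* (0.63) and *ctssb1* (0.70), with only its groups fitted for *ctss* (0.64) and *ctssb1* (0.68), and ranged with single arrays left out from 0.52 to 0.69, 0.54 to 0.74 and 0.62 to 0.74. *ctssb1* in Ctrl minus T0 passed with array weights (0.77) and ranged from 0.36 to 0.74. Fsh+Tri minus Ctrl lost its call for *ctss* with quantile normalized spot intensities (0.61), on stage I-II arrays (0.90) and on the older software (0.64), and for *ctssb1* under 6 alternatives other than single arrays left out (0.54 to 0.79). Fsh minus Tri lost it for *ctss* under 7 such alternatives (0.31 to 0.57), and *ctssb1* passed there with array weights (0.70) and with only its groups fitted (0.67). The cause of these changes was not tested.

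Values near 0 that were never called changed sign. For *ctss* these were Tri minus Ctrl with array weights (-0.10, and -0.075 to 0.15 with arrays left out), Fsh+Tri minus Fsh with spot intensities quantile normalized (-0.0042), and the difference of its responses to Fsh with quantile normalized spot intensities (-0.031), with stage as a covariate (-0.0078) and with software version as a covariate (-0.021), and from -0.080 to 0.14 with arrays left out. For *ctssb1* they were Tri minus Ctrl with array weights (-0.16, and -0.15 to 0.24 with arrays left out), Fsh+Tri minus Fsh with repeated quantile normalization (-0.020), stage as a covariate (-0.0088) and array weights (-0.0013), and -0.067 to 0.093 with arrays left out, and the difference of its responses with spot intensities centred (0.046), stage I-II arrays (0.11) and array weights (0.16), and -0.22 to 0.16 with arrays left out. Between clones, *ctss* minus *ctssb1* turned in Tri minus Ctrl on stage I-II arrays (0.15, and -0.20 to 0.074 with arrays left out) and in Fsh+Tri minus Fsh on spot intensities (-0.084, and -0.020 to 0.16). With arrays left out it ranged over -0.15 to 0.092 in Fsh+Tri minus Tri and -0.018 to 0.25 for the difference of responses, *ctl1* minus *ctss* over -0.089 to 0.043 and *ctl1* minus *ctssb1* over -0.19 to 0.051 in Fsh+Tri minus Tri.

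Replicate numbers were shared between treatments, but same-numbered arrays did not deviate together (correlations -0.348 to 0.214, and 1 of 24 arrays correlated best with its own number). With the replicate block, *ctss* in Fsh minus Ctrl was 0.62 (limma, adjusted p = 0.0714), which ended its call, and 10 clones in place of 16 were called in Fsh+Tri minus Tri. Over all clones, Fsh minus Ctrl gave 99 calls, between 22 on stage I-II arrays and 124 without Ctrl replicate 4, and 37 with only its groups fitted. Fsh+Tri minus Tri gave 16 calls, between 0 on stage I-II arrays and 84 with array weights, and Fsh+Tri minus Fsh 66, between 12 on stage I-II arrays and 110 on centred spot intensities. Tri minus Ctrl gave 26, between 12 on the older software and 33 on quantile normalized spot intensities, and Ctrl minus T0 918, between 159 on stage I-II arrays and 1279 with array weights. The comparison of clone pairs on arrays of the older software was added after the data had been seen.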
